A study of Mus musculus with 6 samples.

Results

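The expression of 10 genes that make, use or regenerate the cell's reducing power was examined in primary mouse keratinocytes, the cells that build the epidermis, with and without the SoxC transcription factors *Sox4* and *Sox11*. The genes were *Gpx2*, *Gsta3*, *Gsta4*, *Gclm*, *Prdx4*, *Txnrd1*, *Nqo1*, *Nqo2*, *Hmox1* and *Cyba*, out of 21368 genes that the array's probes name, and each had at least 1 probe. Of the 10, *Gpx2* and *Gsta3* were chosen by their low values and *Prdx4* by its high value in the *Sox4* knockout, and *Cyba* by its low value in the double knockout. Those values, and every comparison that holds them, are therefore given as a description without a test.

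Each of 6 two-colour arrays held knockout RNA in one channel and wild-type RNA in the other, with 2 arrays for each of 3 genotypes: keratinocytes without *Sox4* (Sox4cKO), without *Sox11* (Sox11cKO) and without both genes (dcKO). In the study's mice, floxed alleles were deleted by a Cre recombinase driven by the *keratin 14* promoter, which is active in basal epidermal cells, and all groups came from newborn skin. The labels give a 129SvEx:C57BL/6 background for every group, while by the methods the floxed parents, which are also listed as *Sox12*-/-, were crossed to Cre mice of the FVB/N strain. The sources used here do not give the *Sox12* genotype of the cells. All cells had been grown on J2 fibroblast feeders and then without them. The labels call the 2 arrays of a genotype biological replicates, but give no record of how the controls of different arrays relate, from a common culture or from separate ones, so a spread between arrays may include differences between control cultures.

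Glutathione is the main small thiol of the cell. Glutathione peroxidases use it to reduce peroxides, and glutathione S-transferases couple it to reactive molecules, while peroxiredoxins and thioredoxin reductase form a parallel route that draws on NADPH. Many of these genes carry antioxidant response elements, at which the transcription factor NRF2 (encoded by *Nfe2l2*) acts when its repressor KEAP1 releases it. NADPH oxidases stand on the other side of the balance, since they spend NADPH to make superoxide or hydrogen peroxide on purpose. In the epidermis, which meets sunlight, oxygen and chemicals directly, all of these systems are in use.

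To show the start sites behind the members with the widest changes, the 250 bases upstream of the annotated start of *Gpx2*, *Gsta3*, *Prdx4* and *Cyba* are printed in the direction of the gene, from RefSeq on GRCm38.p6. Capitals mark matches to the core of the antioxidant response element, TGACNNNGC, or to a SOX-type motif, AACAAAG, on either strand.
Gpx2, chr12:76795555-76795804, minus strand: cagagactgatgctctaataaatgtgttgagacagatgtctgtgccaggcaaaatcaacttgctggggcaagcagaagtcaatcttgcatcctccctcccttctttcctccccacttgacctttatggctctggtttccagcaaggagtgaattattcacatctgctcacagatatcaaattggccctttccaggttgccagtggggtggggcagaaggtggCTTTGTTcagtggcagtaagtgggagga
Gsta3, chr1:21240335-21240584, plus strand: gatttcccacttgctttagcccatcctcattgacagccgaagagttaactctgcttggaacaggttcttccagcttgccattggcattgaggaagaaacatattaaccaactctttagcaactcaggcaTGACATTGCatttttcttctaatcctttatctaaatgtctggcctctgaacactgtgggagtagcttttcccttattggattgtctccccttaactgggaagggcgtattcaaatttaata
Prdx4, chrX:155338461-155338710, minus strand: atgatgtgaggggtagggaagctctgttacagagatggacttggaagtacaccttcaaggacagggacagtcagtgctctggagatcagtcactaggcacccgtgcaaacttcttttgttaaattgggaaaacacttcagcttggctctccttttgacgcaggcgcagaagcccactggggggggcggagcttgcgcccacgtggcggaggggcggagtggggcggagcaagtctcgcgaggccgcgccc
Cyba, chr8:122432941-122433190, minus strand: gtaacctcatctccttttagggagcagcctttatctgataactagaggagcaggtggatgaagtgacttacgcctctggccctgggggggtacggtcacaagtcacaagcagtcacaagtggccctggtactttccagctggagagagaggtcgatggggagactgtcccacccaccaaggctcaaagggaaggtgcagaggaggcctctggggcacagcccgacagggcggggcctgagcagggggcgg

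The antioxidant response element core was found upstream of *Gsta3*, 121 to 113 bases before the start, and upstream of *Gclm* and *Txnrd1*, whose matches are shown with the bases around them because both encode classical NRF2 targets.
Gclm, chr3:122245413-122245441, plus strand: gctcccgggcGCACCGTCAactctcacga
Txnrd1, chr10:82859104-82859132, plus strand: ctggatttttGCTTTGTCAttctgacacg
In *Gclm* and *Txnrd1* the match lay on the strand opposite to the gene. The core was present in 10.2% of 32851 RefSeq promoter windows of the same length and in 3 of the 8 members that had an entry. The share is per window, whereas a member counts if any of its windows holds the core. Windows at the other annotated starts of *Txnrd1* did not hold it. The SOX-type motif was present in 5.03% of windows and, among the members, upstream of *Gpx2* alone, where it lay on the opposite strand 28 to 22 bases before the start. *Hmox1* and *Gsta4* had no entry. These matches describe letters and not occupied sites.

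Across arrays, the share of the 55681 probes well above background was 35.1% to 42.8% for knockout and 37.3% to 45% for wild-type RNA. *Sox4* had a log2 ratio of knockout over wild type of -2.52 in both Sox4cKO and dcKO cells, and *Sox11* had ratios of -2.98 in Sox11cKO and -3.43 in dcKO cells, each called in limma (adjusted p between 0.00106 and 0.0414). All 10 keratinocyte markers examined were well above background in over 6 of 12 channels, as were 1 of 9 fibroblast, 4 of 11 leukocyte, 3 of 6 melanocyte, 2 of 4 endothelial and 5 of 8 hair follicle and sebaceous markers. In no channel were 6 fibroblast, 5 leukocyte, 3 melanocyte, 1 endothelial and 2 hair follicle and sebaceous markers well above background. The log2 of the summed intensity ranged over the 12 channels from 17.8 to 19.0 for keratinocyte, 13.4 to 15.8 for differentiated keratinocyte, 8.06 to 8.35 for fibroblast, 11.2 to 12.2 for leukocyte, 7.78 to 8.35 for melanocyte, 10.4 to 10.8 for endothelial and 10.1 to 11.7 for hair follicle and sebaceous markers. On the dcKO arrays the hair follicle and sebaceous sum was lower in knockout (10.1 and 11.1) than in wild-type channels (11.2 and 11.7), as was the melanocyte sum (7.78 and 7.97 against 7.98 and 8.02), and the endothelial sum was higher (10.7 and 10.8 against 10.4 and 10.6). On the Sox11cKO arrays the differentiated keratinocyte sum was lower in knockout (14.75 and 15.03) than in wild-type channels (15.07 and 15.43). Its brightest markers there, *Krtdap* and *Sbsn*, were both lower in knockout on replicate 1 but went opposite ways on replicate 2. On replicate 2 *Krtdap* was at 14.22 in knockout and 11.996 in wild type, and *Sbsn* at 13.71 and 15.22. That sum is therefore not a like change of its markers. The other sums overlapped between knockout and wild type. The part of these in the results was not tested. The endothelial sum was nearly that of *Kdr* alone (10.3 to 10.7), since no other endothelial marker exceeded 5.97. Of the melanocyte markers, *Dct*, *Tyrp1* and *Sox10* were well above background in no channel, and none of the list exceeded 7.21. In every channel of the dcKO arrays *Lrig1* and *Sox9* were the brightest hair follicle and sebaceous markers, while *Lhx2* and *Lgr5* were well above background in none. None of these sums is therefore read as an amount of cells. In bulk RNA, fewer cells of a type and less RNA per cell cannot be told apart.

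Of the 10 members, 8 were well above background in all 12 channels, and *Nqo1* and *Cyba* in 7. Levels below are log2 normalised intensities of a gene's brightest probe and are compared for the same probe only. Ratios are log2 knockout over wild type. A probe was called at a limma adjusted p below 0.05, over all probes of a comparison, together with an absolute log2 ratio above 1.5. By that rule 3 of 10 members were called in Sox4cKO cells, where 0.14% of all probes were, but all 3 are the genes chosen by those values, and 0 of the other 7 were called by limma (adjusted p between 0.445 and 0.998), with 1 of 7, *Nqo1*, at an unadjusted p below 0.05. In Sox11cKO cells *Gsta3* was called, 1 of 10, against 0.0862% of probes. In dcKO cells *Cyba*, which was chosen by that value, and *Nqo2* were called, the latter 1 of 9 tested members, against 0.756% of probes. Knockout and wild-type levels did not overlap for 5, 4 and 5 of the 10 members in Sox4cKO, Sox11cKO and dcKO comparisons, beside 29.2%, 23% and 34.2% of all probes; 3 of the 5 in Sox4cKO and 1 of the 5 in dcKO cells were chosen by those ratios, so nothing is read from these counts. The median log2 ratio of the members was -0.03, -0.33 and -0.17 in Sox4cKO, Sox11cKO and dcKO cells, and that of all probes was 0.00 in each.

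**Figure D1:**
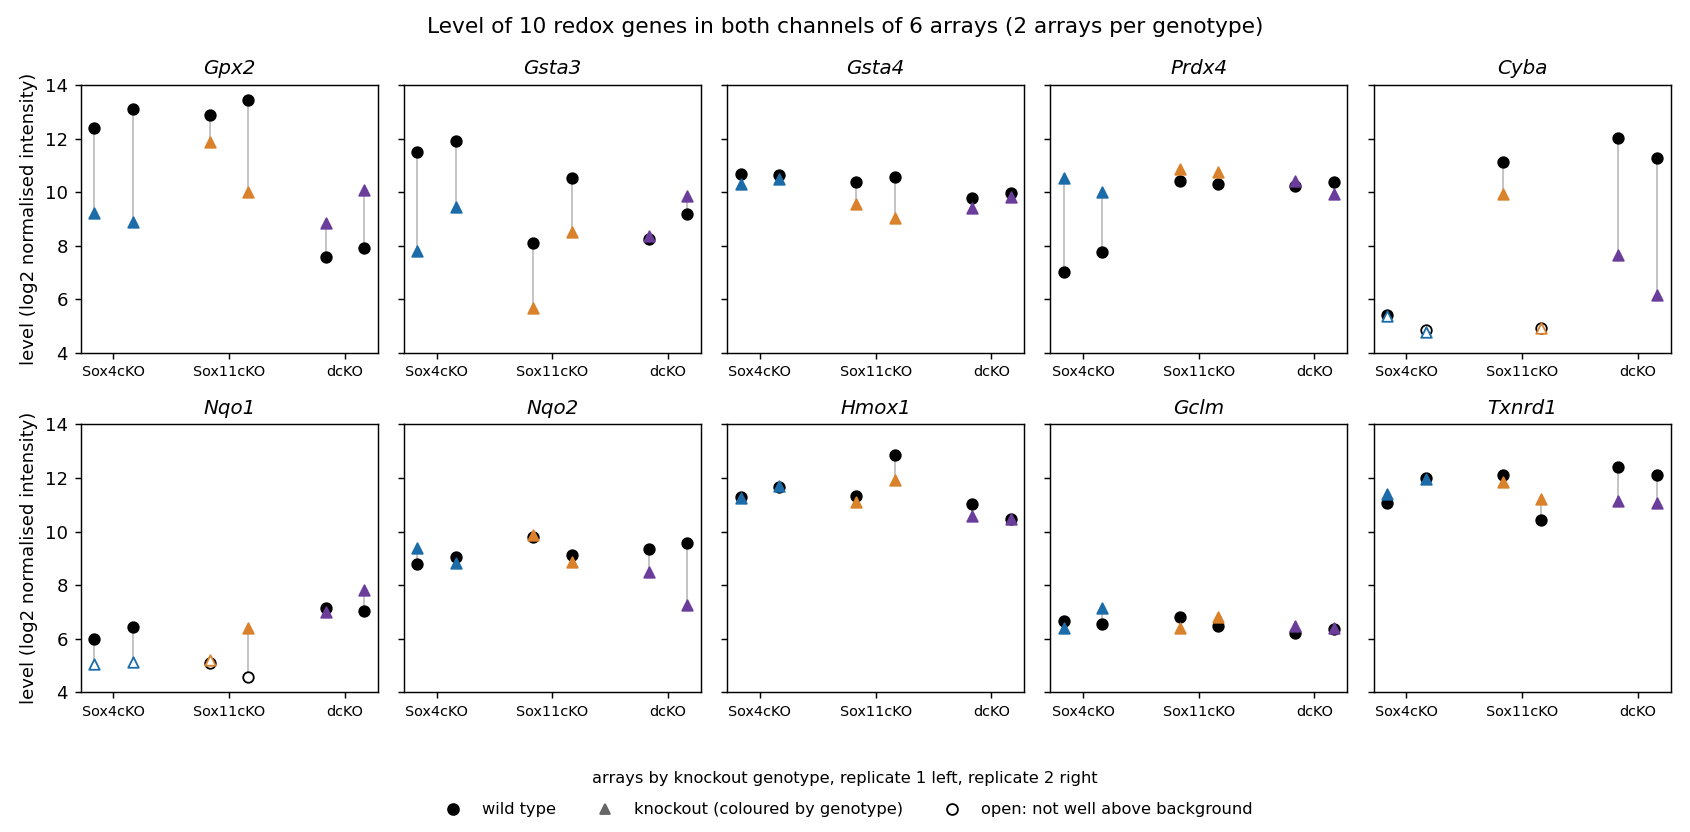
Level of each of the 10 genes (log2 normalised intensity, brightest probe) in the wild-type channel (black circles) and the knockout channel (coloured triangles) of each of 6 arrays, with a grey line joining the channels of an array and open symbols where the spot was not well above background. The wild-type *Gpx2* levels on the dcKO arrays, 7.58 and 7.92, lay below all 4 other wild-type levels, and the wild-type *Cyba* levels ran from 4.86 to 12.03.

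*Gpx2*, a selenium-dependent glutathione peroxidase of epithelia, was lower than wild type on all 4 arrays of Sox4cKO and Sox11cKO cells and higher on both dcKO arrays. On the Sox4cKO arrays its levels were 9.21 and 8.88 in knockout cells and 12.39 and 13.11 in wild-type cells. On the Sox11cKO arrays they were 11.87 and 10.01 in knockout and 12.89 and 13.46 in wild-type cells. On the dcKO arrays they were 8.84 and 10.07 in knockout and 7.58 and 7.92 in wild-type cells. Knockout and wild-type levels did not overlap within any genotype, but the direction differed. Of the dcKO levels, 8.84 lay close to those of Sox4cKO cells and 10.07 close to the 10.01 of Sox11cKO replicate 2. It was the wild-type level of the dcKO arrays that was unlike the others.

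The log2 ratio of *Gpx2* was -3.71 ± 0.73 (SD, n = 2) in Sox4cKO cells, or 13.05-fold lower, which is among the values that chose it. It was -2.23 ± 1.71 (SD, n = 2; limma adjusted p = 0.206) in Sox11cKO cells, and in dcKO cells it was 1.71 ± 0.63 (SD, n = 2; limma adjusted p = 0.133); neither was called. The dcKO ratio exceeded the Sox11cKO ratio by 3.94 (SE 0.64; limma adjusted p = 0.061), also not called. The Sox11cKO ratio rested on the arrays unequally: without replicate 1 it was -3.41 and called (adjusted p = 0.00177), and without replicate 2 it was -1.06 (adjusted p = 0.863). Likewise, without replicate 1 of dcKO the dcKO ratio was 3.02 (adjusted p = 0.0706), and without replicate 2 it was 0.40 (adjusted p = 0.834), whereas leaving out either Sox11cKO array left it at 1.71 and called (adjusted p = 0.00393). In such fits the lone array of a genotype is assumed to vary like the others.

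*Gsta3*, a glutathione S-transferase of the alpha class, fell in Sox11cKO cells as well as being chosen for its low value in Sox4cKO cells. Its levels on the Sox11cKO arrays were 5.69 and 8.50 in knockout and 8.10 and 10.53 in wild-type cells. The arrays thus differed by more than 2 log2 units from each other in both channels, and the groups overlapped, but on each array the knockout was lower by a like amount. The log2 ratio was -2.22 ± 0.27 (SD, n = 2; 4.65-fold lower; limma adjusted p = 0.0145), and a second probe gave -1.92 ± 0.02 (SD, n = 2; limma adjusted p = 0.0317). In Sox4cKO cells the levels were 7.79 and 9.43 against 11.49 and 11.89 in wild type, with a ratio of -3.08 ± 0.88 (SD, n = 2).

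In dcKO cells *Gsta3* was not lower. Its levels were 8.34 and 9.86 in knockout and 8.23 and 9.17 in wild-type cells, which overlapped, with a ratio of 0.40 ± 0.41 (SD, n = 2; limma adjusted p = 0.429) that turned to -0.11 when arrays were median centred in place of loess. The dcKO ratio exceeded that of Sox11cKO cells by 2.62 (SE 0.26; limma adjusted p = 0.0135) and was the only call among 9 tested members in that contrast, in which 0.449% of all probes were called. By the second probe the difference was 2.24 (limma adjusted p = 0.0284). Without either dcKO array the difference was no longer called, at 2.50 without replicate 1 (adjusted p = 0.0962) and 2.73 without replicate 2 (adjusted p = 0.114). Without the dye term, which is the same as a block on the replicate number, the Sox11cKO ratio missed the threshold (adjusted p = 0.0972), as did the difference (adjusted p = 0.0915).

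*Gsta4*, the alpha-class transferase known for its activity on lipid peroxidation products such as hydroxynonenal, moved less. In Sox11cKO cells its levels were 9.55 and 9.04 against 10.37 and 10.57 in wild type, which did not overlap. The log2 ratio was -1.17 ± 0.50 (SD, n = 2; limma adjusted p = 0.129), and it was called without replicate 1 of Sox11cKO (-1.64; adjusted p = 0.00616) but not without replicate 2 (-0.71; adjusted p = 0.709). In Sox4cKO and dcKO cells the ratios were -0.25 and -0.27, with adjusted p of 0.842 and 0.701. *Gsta4* was lower than wild type on all 6 arrays.

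Among the other glutathione S-transferases, 23 of 25 listed genes had a probe, and 1 was called. *Gstk1*, the kappa-class enzyme of mitochondria and peroxisomes, fell in both Sox4cKO and Sox11cKO cells. Its Sox4cKO levels were 5.62 and 6.22 against 7.51 and 7.84 in wild type, a ratio of -1.76 ± 0.19 (SD, n = 2; limma adjusted p = 0.0314). Its Sox11cKO levels were 8.51 and 5.55 against 10.35 and 8.01 in wild type, a ratio of -2.15 ± 0.44 (SD, n = 2; limma adjusted p = 0.0169). On the dcKO arrays the levels were 7.51 and 7.90 in knockout and 7.48 and 7.72 in wild-type cells, with a ratio of 0.11. The dcKO ratio exceeded that of Sox4cKO cells by 1.87 (limma adjusted p = 0.0372) and that of Sox11cKO cells by 2.26 (limma adjusted p = 0.0238), so that *Gstk1* and *Gsta3* both differed between dcKO and Sox11cKO cells. The Sox4cKO call was lost without replicate 1 (adjusted p = 0.39) and without replicate 2 (adjusted p = 0.323) of that genotype. *Gsta2*, named after its values were seen because it is a close relative of *Gsta3* whose transcripts could share a probe, had ratios of -1.13, -2.53 and 0.69 in Sox4cKO, Sox11cKO and dcKO cells and was not called (limma adjusted p = 0.675, 0.184 and 0.682).

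*Gclm*, the modifier subunit of the enzyme that starts glutathione synthesis, showed the smallest spread of any member. Its levels ran from 6.22 to 6.81 in 6 wild-type channels and from 6.39 to 7.14 in 6 knockout channels. The log2 ratios were 0.18, -0.04 and 0.14 in Sox4cKO, Sox11cKO and dcKO cells, with 95% intervals from -0.30 to 0.65, -0.52 to 0.44 and -0.34 to 0.61, so a change of 1.5 lay outside each interval. The probe was well above background in all 12 channels but dim. On the second *Cyba* probe, a spot at 5.63 was not well above background. How far the weak signal of *Gclm* narrowed its spread and intervals was not tested. Of 18 other genes of glutathione synthesis, uptake and recycling, 1 was called: *Chac1*, an enzyme that degrades glutathione, rose in dcKO cells, with levels of 12.60 and 11.91 against 10.31 and 10.89 in wild type and a ratio of 1.65 ± 0.89 (SD, n = 2; limma adjusted p = 0.0418). That call was lost without either dcKO array (adjusted p = 0.465 without replicate 1 and 0.214 without replicate 2).

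**Figure D2:**
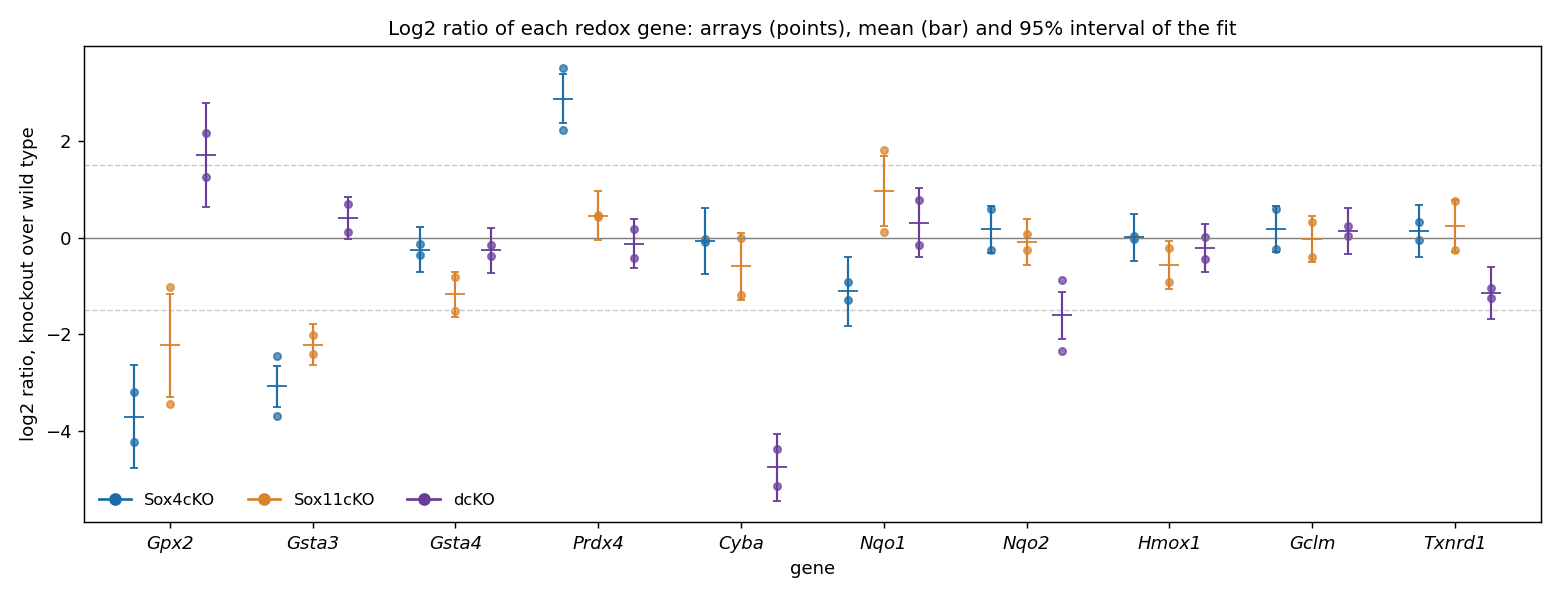
Log2 ratio of knockout over wild type for each gene and genotype, with points for the 2 arrays, a bar for their mean and a vertical line for the 95% interval of the limma fit, and dashed lines at the threshold of 1.5 in either direction. *Gsta3* lay below the lower dashed line on both arrays of Sox4cKO and Sox11cKO cells and above 0 on both dcKO arrays.

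*Prdx4*, a peroxiredoxin of the endoplasmic reticulum that couples hydrogen peroxide removal to protein folding, was chosen by its high ratio in Sox4cKO cells, 2.87 ± 0.91 (SD, n = 2). The levels behind that ratio were 10.53 and 9.99 in Sox4cKO cells and 7.02 and 7.77 in the wild-type cells on the same arrays. The knockout levels fell within the range of the other genotypes, whose knockout levels were 10.87 and 10.74 in Sox11cKO and 10.41 and 9.93 in dcKO cells. The wild-type levels on the Sox11cKO arrays were 10.41 and 10.31 and those on the dcKO arrays 10.24 and 10.36. It was thus the wild type of the Sox4cKO arrays that stood apart, 7.66-fold below the mean of the other 4 wild-type channels, while the knockout differed from that mean by -0.07 on the log2 scale. In Sox11cKO and dcKO cells the ratios of *Prdx4* were 0.45 (limma adjusted p = 0.796) and -0.13 (limma adjusted p = 0.902).

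*Txnrd1*, the cytosolic thioredoxin reductase, was lower on both dcKO arrays, at 11.14 and 11.06 against 12.40 and 12.10 in wild type, with no overlap. The ratio was -1.15 ± 0.15 (SD, n = 2; limma adjusted p = 0.0582) and was not called, although median centring made it -1.69 (adjusted p = 0.00647). In Sox4cKO and Sox11cKO cells the ratios were 0.14 and 0.24 and the levels overlapped. The dcKO ratio minus that of Sox4cKO cells was -1.29 (limma adjusted p = 0.156), and minus that of Sox11cKO cells -1.39 (limma adjusted p = 0.149). Of 22 other genes for peroxiredoxins, thioredoxins and the removal of superoxide or peroxide, 1 was called. *Cat*, which encodes catalase, rose in dcKO cells with levels of 8.59 and 9.87 against 7.06 and 8.12 in wild type, a ratio of 1.64 ± 0.16 (SD, n = 2; limma adjusted p = 0.0208). Its ratio in Sox4cKO cells was -0.56, and the difference between dcKO and Sox4cKO cells was 2.20 (limma adjusted p = 0.045). The *Cat* call in dcKO cells was lost without replicate 1 (adjusted p = 0.0917) and without replicate 2 (adjusted p = 0.322).

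The quinone reductases *Nqo1* and *Nqo2*, which reduce quinones by a pair of electrons with different cofactors, did not move alike. *Nqo2* fell in dcKO cells, where its levels were 8.48 and 7.24 against 9.36 and 9.59 in wild type. The groups did not overlap, and the ratio was -1.61 ± 1.04 (SD, n = 2; 3.06-fold lower; limma adjusted p = 0.0128). A second probe, dimmer and not well above background in dcKO cells, was at least 1.75-fold lower, a bound taken against the lowest signal well above background (fitted ratio -0.83; limma adjusted p = 0.0515). In Sox4cKO cells the levels of *Nqo2* were 9.38 and 8.81 against 8.78 and 9.06, and in Sox11cKO cells 9.86 and 8.87 against 9.80 and 9.13, both overlapping, with ratios of 0.17 and -0.10. The dcKO ratio minus that of Sox4cKO cells was -1.78 (limma adjusted p = 0.0533), and minus that of Sox11cKO cells -1.52 (limma adjusted p = 0.0889), and neither difference was called. The *Nqo2* call was lost without replicate 1 of dcKO (-2.06; adjusted p = 0.0632), without replicate 2 (-1.17; adjusted p = 0.219) and without the dye term (adjusted p = 0.0924).

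*Nqo1*, often used as a readout of NRF2, was dim. In Sox4cKO cells it was not well above background on either array, at 5.07 and 5.12 against 6.00 and 6.42 in wild type, which makes it at least 2.17-fold lower (limma adjusted p = 0.445). The fitted log2 ratio was -1.95 without replicate 1 of Sox4cKO and -0.28 without replicate 2. On the Sox11cKO arrays neither wild-type channel was well above background, at 5.09 and 4.58. The knockout was on 1 of 2, at 5.21 and 6.38 (limma adjusted p = 0.499). The log2 ratio was 0.12 on replicate 1, where neither channel was well above background, and 1.80 on replicate 2. No fold is therefore given. The fitted ratio was 1.67 without replicate 1 of Sox11cKO and 0.26 without replicate 2. On the dcKO arrays both channels were well above background and overlapped, at 7.001 and 7.82 in knockout and 7.15 and 7.04 in wild type, with a ratio of 0.31.

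*Hmox1*, which encodes the inducible haem oxygenase and is another NRF2 target, did not separate knockout from wild type by its brightest probe. Its levels were 11.26 and 11.70 against 11.29 and 11.67 in the Sox4cKO comparison, 11.10 and 11.93 against 11.32 and 12.86 in the Sox11cKO comparison, and 10.58 and 10.46 against 11.02 and 10.45 in the dcKO comparison, with the knockout given first. All 3 pairs of groups overlapped. The ratios were 0.00, -0.57 and -0.22, with limma adjusted p of 0.998, 0.619 and 0.793. A second, dimmer probe gave ratios of 0.17, -0.48 and -0.20, also not called (limma adjusted p = 0.917, 0.758 and 0.827). By that probe the dcKO groups did not overlap, at 6.89 and 6.89 in knockout and 7.02 and 7.16 in wild type. In Sox11cKO cells both probes were lower than wild type on both arrays.

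*Cyba* encodes the membrane subunit that stabilises the catalytic subunit of several NADPH oxidases. It was chosen by its low ratio in dcKO cells, where its levels were 7.65 and 6.14 against 12.03 and 11.28 in wild type, a ratio of -4.76 ± 0.53 (SD, n = 2). A second, dimmer probe, not well above background in dcKO cells, was 8.17-fold lower as measured. The ratio of the brightest probe was -5.42 without replicate 1 of dcKO, -4.10 without replicate 2 and -5.39 with the processed signals, and the mean of both probes was -3.89. The wild-type level itself ranged more than that of any other member. On the Sox4cKO arrays *Cyba* was at 5.38 and 4.77 in knockout and 5.42 and 4.86 in wild-type cells, and only the wild-type channel of replicate 1 was well above background. On the Sox11cKO arrays it was at 9.94 in knockout and 11.13 in wild-type cells of replicate 1, and at 4.92 in both channels of replicate 2, where neither was well above background. Both channels of an array were thus bright or both dim on each of the 4 Sox4cKO and Sox11cKO arrays, and replicate 1 of Sox11cKO was the only one of these arrays with both channels well above background. Its ratio was -1.19, and the fitted ratio for Sox11cKO, which also holds the unmeasured replicate 2, was -0.60 (limma adjusted p = 0.801). No fold is given for Sox4cKO cells (limma adjusted p = 0.982). Of the 4 wild-type channels on those arrays, 2 were well above background, at 5.42 and 11.13, and the wild type of both dcKO arrays lay above all 4.

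Of the 11 leukocyte markers, 5 were well above background in none of the 12 channels: *Cybb*, which encodes the oxidase subunit that pairs with the *Cyba* product in phagocytes, *Ncf1*, *Adgre1*, *Lyz2* and *Cd207*. Another 4, *Itgam*, *Csf1r*, *Cd68* and *Cd3e*, were well above background in all 12. The log2 summed intensity of all 11 leukocyte markers was 11.3 to 11.4 in the wild-type and 11.4 in the knockout channels of the dcKO arrays. *Itgam* was the brightest of them there, at 10.1 to 10.5, and *Ptprc* was well above background in 1 of the 12 channels. A sum led by so few markers is not read as an amount of leukocytes.

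Of 14 other NADPH oxidase genes with a probe, 2 were called, both higher in dcKO cells: *Duox1*, a hydrogen peroxide-producing oxidase of epithelia, and *Duoxa1*, its maturation factor. *Duox1* levels were 10.68 and 11.77 in dcKO and 9.15 and 9.94 in wild-type cells, a ratio of 1.68 ± 0.21 (SD, n = 2; limma adjusted p = 0.00373). *Duoxa1* levels were 12.33 and 13.15 against 10.36 and 11.42, a ratio of 1.85 ± 0.16 (SD, n = 2; limma adjusted p = 0.00508), and its second probe gave 2.00. Neither pair of groups overlapped. In Sox4cKO and Sox11cKO cells both genes had ratios between -0.50 and -0.05. The dcKO ratio of *Duox1* exceeded those of Sox4cKO and Sox11cKO cells by 1.73 and 2.16, and that of *Duoxa1* by 2.06 and 2.35, each called by limma (adjusted p between 0.0135 and 0.0235). As with *Gpx2*, the wild-type levels on the dcKO arrays were below those elsewhere, which ran from 10.82 to 11.19 for *Duox1* and from 12.29 to 13.10 for *Duoxa1*, and the dcKO knockout levels lay close to or within those ranges. With either dcKO array left out, the ratio stayed between 1.65 and 1.71 for *Duox1* and between 1.75 and 1.95 for *Duoxa1*, but both calls were lost.

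**Figure D3:**
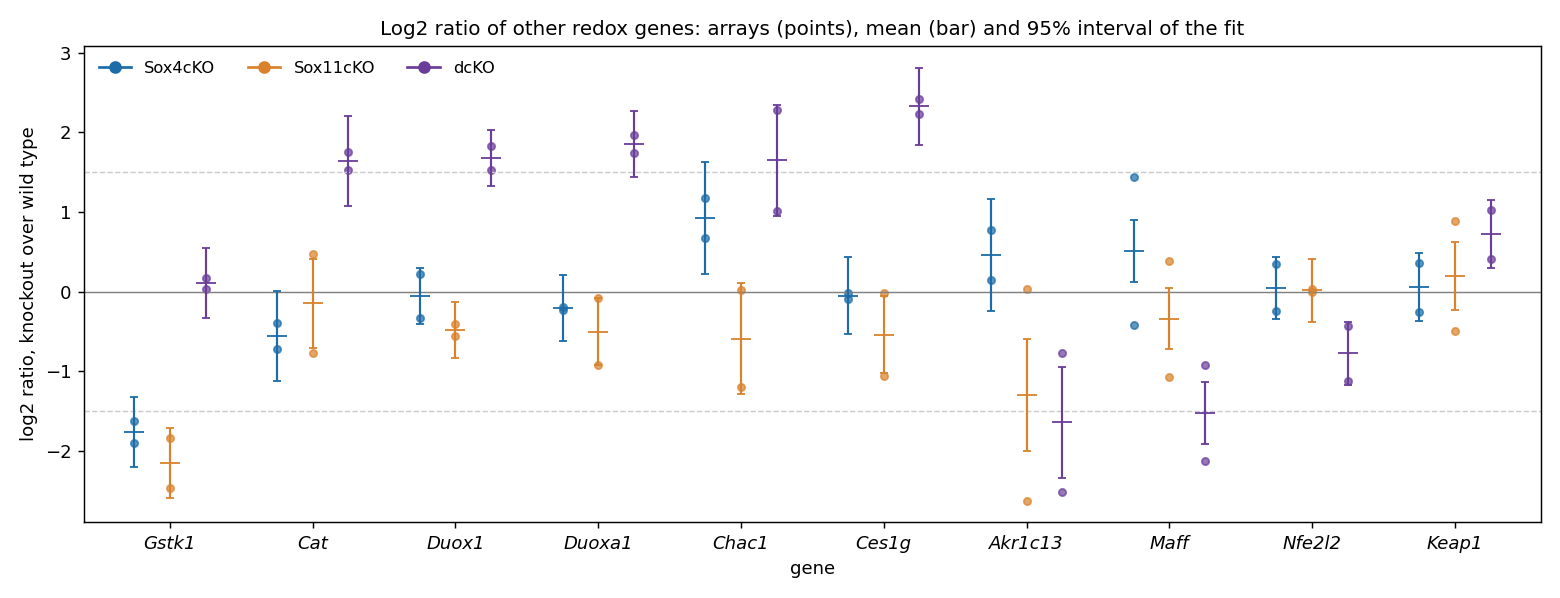
Log2 ratio of knockout over wild type for the 8 other redox genes called in at least 1 genotype and for *Nfe2l2* and *Keap1*, drawn as points for the 2 arrays, a bar for their mean and a line for the 95% interval of the limma fit, with dashed lines at 1.5 in either direction. *Gstk1* was low in Sox4cKO and Sox11cKO cells and near 0 in dcKO cells, while *Cat*, *Duox1*, *Duoxa1* and *Ces1g* lay above 1.5 on both dcKO arrays.

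In all, 117 of 120 other redox genes had a probe, of which 1 was called lower in Sox4cKO cells, 1 lower in Sox11cKO cells, and 5 higher and 2 lower in dcKO cells. The median log2 ratio of the 117 genes was 0.00, -0.10 and 0.00 in that order. By adjusted p alone, 11 of the 117 passed in dcKO cells, 7 higher and 4 lower, beside 2.05% of all probes. These figures are not alike, because each of the 117 genes is given by its brightest probe, while the share also covers dim and unnamed probes. Nothing is therefore read from the gap. Besides the genes above, *Ces1g*, a carboxylesterase, rose in dcKO cells, where it was at 7.21 and 7.45, while neither wild-type channel there was well above background, which makes it at least 4.95-fold higher (limma adjusted p = 0.00367). *Akr1c13*, an aldo-keto reductase, fell, with levels of 5.19 and 5.69 against 5.97 and 8.20 and a ratio of -1.64 ± 1.23 (SD, n = 2; limma adjusted p = 0.0432), but its knockout channel was well above background on 1 of 2 dcKO arrays, and likewise on 1 of 2 Sox11cKO arrays, where the ratio was -1.30 (limma adjusted p = 0.279). Both calls were lost without either dcKO array.

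Of the 10 genes that control NRF2, *Maff*, a small MAF protein that pairs with NRF2 on DNA, was the only call. It fell in dcKO cells, with levels of 7.46 and 6.97 against 8.38 and 9.10 in wild type and a ratio of -1.52 ± 0.85 (SD, n = 2; limma adjusted p = 0.00756), and that call was lost without either dcKO array and without the dye term (adjusted p = 0.294). In dcKO cells *Nfe2l2* had a ratio of -0.78 ± 0.49 (SD, n = 2; limma adjusted p = 0.0721) and *Keap1* one of 0.72 ± 0.43 (SD, n = 2; limma adjusted p = 0.115), and in Sox4cKO and Sox11cKO cells their ratios lay between 0.02 and 0.19. For *Nqo1*, *Hmox1*, *Gclm* and *Txnrd1*, members that are classical NRF2 targets, 0 of 12 ratios were called by limma, and 4 had an unadjusted p below 0.05. This count does not cover every member that may answer to NRF2. It leaves out *Gsta3*, which has the antioxidant response element core upstream. *Gsta3* was called in Sox11cKO cells (-2.22; limma adjusted p = 0.0145) and not in dcKO cells.

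Between genotypes, where the values did not choose the members, 0 of 6 tested members were called by limma in the contrast of dcKO with Sox4cKO cells, in which 0.562% of all probes were, and 3 of the 6 had an unadjusted p below 0.05. In the contrast of Sox4cKO with Sox11cKO cells 0 of 7 were called, beside 0.0108% of probes, and 2 of the 7 had an unadjusted p below 0.05. One of these was *Nqo1* (limma adjusted p = 0.298), for which no size is given because most of its channels on these arrays were not well above background.

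Because the wild-type channels differed between arrays, they were compared on their own. The wild-type level ranged over at least 7.17 log2 units for *Cyba*, whose lowest values were not well above background, and over 5.88 for *Gpx2*, 3.79 for *Gsta3* and 3.39 for *Prdx4*, and a range as wide was seen in 0.088%, 0.22%, 1.34% and 1.93% of 22739 probes. These are the 4 genes chosen by a ratio, and the ratio contains the wild-type level. Among the other 6, the range was at least 2.57 for *Nqo1*, for the same reason, and 2.41 for *Hmox1*, 1.95 for *Txnrd1*, 1.01 for *Nqo2*, 0.87 for *Gsta4* and 0.59 for *Gclm*, the last matched or exceeded by 74.2% of probes. For *Prdx4* and *Txnrd1* the wild-type range was 3.60 and 2.18 times that of the knockout channels, whereas for *Nqo2* it was 0.385 times.

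**Figure D4:**
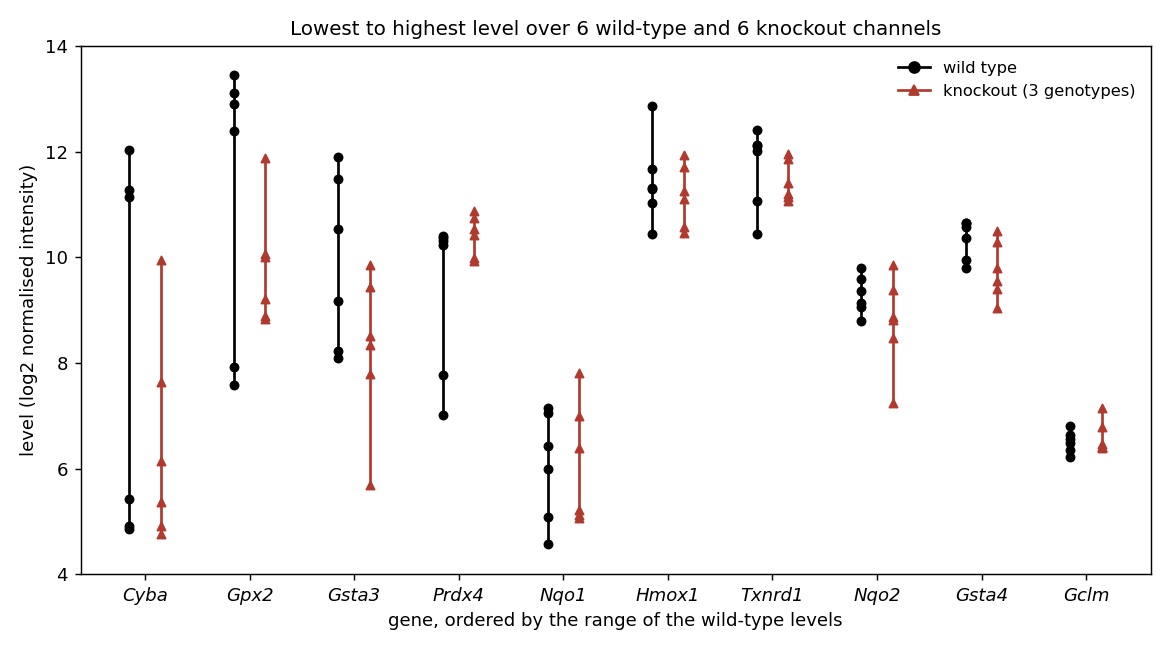
Level of each gene (log2 normalised intensity, brightest probe) in the 6 wild-type channels (black circles) and the 6 knockout channels (red triangles), joined from lowest to highest and ordered by the range of the wild-type levels. *Cyba* spanned at least 7.17 log2 units in wild type, *Gclm* 0.59.

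The wild type of the dcKO arrays was 37.2-fold lower for *Gpx2* than the mean of the other 4 wild-type channels, and that of the Sox4cKO arrays was 6.42-fold higher for *Gsta3*. On the log2 scale the *Gsta3* difference was 2.68, and it ran from 1.96 without replicate 1 of Sox11cKO to 3.40 without replicate 2. For *Cyba* the wild type of the dcKO arrays was higher by 5.07 as measured, with 2 of the 4 other channels not well above background, and by 3.47 without replicate 2 of Sox11cKO and 6.68 without replicate 1. In each of these, the wild type stood farther from the other wild-type channels than the knockout did. For the 6 members that no ratio chose, wild-type levels on the arrays of 1 genotype were tested against those on the other 4 arrays in a limma model of the separate channels. Of 18 such tests, 0 were called by limma and 5 had an unadjusted p below 0.05, while 0.162%, 0.187% and 0.139% of all probes were called on the Sox4cKO, Sox11cKO and dcKO arrays. *Nqo1* came closest, with a fitted difference of -1.82 on the Sox11cKO arrays, where neither wild-type channel was well above background (limma adjusted p = 0.134) and of 1.57 on the dcKO arrays (limma adjusted p = 0.218). Without replicate 1 of Sox11cKO, 3 such differences were called.

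Over the 12 channels, which share arrays in pairs, the genes whose level was most like that of *Gpx2* among 12002 named genes were *Elovl1* (Pearson r = 0.916), *Yipf1* (r = 0.882), *Rmnd5b* (r = 0.865), *Atp2c2* (r = 0.864) and *Chst3* (r = 0.861). Among those most like *Cyba* were *Mrps10* (r = 0.941), *Ccp110* (r = 0.926), *Fes* (r = 0.918) and *Aen* (r = 0.915). The likeness is one of pattern and not of size: *Elovl1* ran from 12.81 to 13.80 and *Mrps10* from 11.35 to 12.28. None of these genes was a member or a gene of the redox lists. *Cyba* was well above background in 7 of the 12 channels, and the channels include the values that chose *Gpx2* and *Cyba*. As the highest of many correlations, these names are a description and were not tested.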

How the data were processed

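RNA of knockout and wild-type keratinocytes was hybridised to 6 two-colour arrays, grouped by the genotype in the labels. Scanner output of Agilent Feature Extraction 11.0.1.1 was deposited as intensity per spot and channel before normalisation, with processed intensity and log10 ratio columns, per the file headers, that the software had background subtracted and dye normalised; other deposited columns mark spots above background and outliers. A further table by the authors gives log2 ratios after background correction, loess and removal of a dye effect. Its direction was knockout over wild type on all 6 arrays (Pearson r between 0.89 and 0.952 with the ratios computed here). The processed signals and this table served as alternatives only.

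Analysis used R 4.3.3 and limma 3.58.1. Median signals were background corrected (normexp, offset 16, as in the study) and loess normalised within arrays. Of 62976 spots, 3671 controls were left out, outlier spots (194 to 288 per array) were set to missing, 0 spots were saturated, and spots of a probe were averaged to 55681 probes. A linear model with an effect for each genotype and a dye effect was fitted to all arrays (2 residual degrees of freedom). The dye term equals a block on the replicate number, because knockout RNA carried Cy5 in replicate 1 and Cy3 in replicate 2; same-numbered arrays deviated together (r = 0.316, 0.244 and 0.125). Levels were scaled between arrays (Aquantile), and wild-type channels were compared by a separate-channel fit (intraspot correlation 0.595; 55584 probes). P-values were adjusted by Benjamini-Hochberg over all probes. SD is over 2 arrays, whose number limits the precision.

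The model was tested on simulated data before use. Probes were named through RefSeq accessions (95.1% of 29786 matched), and a gene is given by its brightest probe. The array design is annotated on another build than the promoters, so no probe coordinates are given. All arrays came from 1 slide and 1 scan. Named genes are the 10 members, every gene of 6 redox lists called in a genotype, *Nfe2l2*, *Keap1*, *Sox4*, *Sox11*, and the 5 genes most like *Gpx2* and *Cyba* among those well above background in at least 6 channels; 1 gene that this rule names is not reported here, and *Gsta2* was added after its values were seen. Members and lists were chosen with earlier results of these data known. Alternatives were another offset (50), processed signals, median centring, the authors' table, no dye term, a filter on dim probes, all probes of a gene averaged, other scalings of the channels, and leaving out each array.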

Additional observations from a re-analysis of the deposited data

Results flagged for a closer look

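Several ratios differed between genotypes in the limma contrasts. For dcKO minus Sox11cKO, the log2 difference was 2.62 for *Gsta3* (adjusted p = 0.0135), 2.26 for *Gstk1* (adjusted p = 0.0238), 2.16 for *Duox1* (adjusted p = 0.0135), 2.35 for *Duoxa1* (adjusted p = 0.017) and 2.87 for *Ces1g* (adjusted p = 0.0154). For dcKO minus Sox4cKO, it was 1.87 for *Gstk1* (adjusted p = 0.0372), 2.20 for *Cat* (adjusted p = 0.045), 1.73 for *Duox1* (adjusted p = 0.0235), 2.06 for *Duoxa1* (adjusted p = 0.0233), 2.38 for *Ces1g* (adjusted p = 0.0235) and -2.03 for *Maff* (adjusted p = 0.0197). *Ces1g* was not well above background on any wild-type channel of the dcKO arrays, so its differences are fitted values and no bounds.

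*Gpx2* and *Gsta3* were lower than wild type on both Sox4cKO arrays and higher on both dcKO arrays, by 5.41 and 3.48 log2 units between the ratios. For *Gsta3* in dcKO cells that holds for the brightest probe after loess: the second probe was at -0.06 on replicate 1, and median centring turned the mean ratio of the brightest to -0.11. These differences were not tested, because the Sox4cKO values chose both genes.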

How the results depend on the processing

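The counts of called members depended on the processing. With an offset of 50, the members called were 0 in Sox4cKO, 0 in Sox11cKO, 1 in dcKO and 0 between genotypes. With the processed signals, all 4 counts were 0, and *Sox4* and *Sox11* were not called in their own knockouts either. Without the dye term, that is, with no replicate block, 0 members were called in Sox11cKO, 1 in dcKO and 0 between genotypes, against 1, 2 and 1 with it. Between genotypes, a member counts once for each contrast in which it was called. There were 5 such calls with median centring and 4 with the log2 ratios of the authors. Averaging all probes of a gene left 1 called member in dcKO. Leaving out each array in turn gave 0 to 3 calls in Sox4cKO, 1 to 4 in Sox11cKO, 1 to 3 in dcKO, 0 to 6 between genotypes, and 0 to 3 in the wild-type comparison, in which the other scalings gave 0. Without replicate 1 of Sox11cKO each of these counts reached its highest value. The 3 calls in Sox4cKO cells and that of *Cyba* in dcKO cells are among the values that chose those genes, so these counts are a description there and no test. In fits with 1 array left out, the deleted genes lost calls as well. These were *Sox4* in Sox4cKO cells, and *Sox11* in Sox11cKO and in dcKO cells, each in 2 such fits. The cause of this dependence was not tested.

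Directions turned only for ratios that were not called. With median centring, the log2 ratio of *Gsta3*, *Nqo1* and *Gclm* in dcKO cells became -0.11, -0.0898 and -0.13 and that of *Cyba* in Sox4cKO cells 0.00583, which averaging its probes made 0.0617. With the processed signals, *Gclm* in Sox11cKO cells became 0.0195. Leaving out each array gave ratios in Sox4cKO cells from -0.198 to 0.0686 for *Cyba*, -0.10 to 0.46 for *Gclm*, -0.0939 to 0.10 for *Hmox1* and -0.37 to 0.64 for *Txnrd1*. In Sox11cKO cells they ran from -1.40 to 0.20 for *Cyba*, -0.24 to 0.16 for *Gclm*, -0.51 to 0.32 for *Nqo2*, -0.0109 to 0.91 for *Prdx4* and -0.31 to 0.80 for *Txnrd1*, and in dcKO cells from -0.35 to 0.62 for *Gclm* and -0.60 to 0.17 for *Hmox1*. *Gsta3* in Sox11cKO cells stayed between -2.62 and -1.91 over 13 alternatives (adjusted p from 0.000846 to 0.649), and *Nqo2* in dcKO cells between -2.11 and -1.17 (adjusted p from 0.000377 to 0.22). Dim probes limit *Nqo1* and *Cyba*, whose values near background depend on the offset.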
